A study of Mus musculus with 26 samples.

Results

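Methylation in mouse sperm was described at 32 genes that encode receptor subunits for glutamate and GABA, the main excitatory and inhibitory transmitters of the brain. The genes were chosen by name, as a list, from 47038 autosomal genes, and a CpG position was assigned to a gene when it lay inside the RefSeq span on GRCm38 or within 2000 bp of it and was read at least 10 times. Of 2626235 positions with 10 reads in any library, 7897 belonged to these genes. Of 431882 positions with 10 reads in all libraries of the 5 groups other than SSCT F0, 1181 did, and these 1181 carry the levels below. The list held 7 NMDA receptor genes (Grin1, Grin2a, Grin2b, Grin2c, Grin2d, Grin3a, Grin3b), 3 AMPA receptor genes (Gria1, Gria2, Gria4), 5 kainate receptor genes (Grik1 to Grik5), 7 metabotropic glutamate receptor genes (Grm2 to Grm8), 8 GABA-A receptor genes (Gabra2, Gabra4, Gabra5, Gabra6, Gabrb1, Gabrb2, Gabrd, Gabrg3) and the 2 GABA-B receptor genes (Gabbr1, Gabbr2).

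The study asked whether spermatogonial stem cell transplantation (SSCT) alters sperm DNA methylation in the transplanted male and in later generations. Reduced representation bisulfite sequencing (RRBS), which reads CpG-rich restriction fragments and counts converted and unconverted cytosines, was applied to sperm of the cauda epididymis of 26 mice. All sperm carried the DBA/2J strain label. SSCT F0 (n = 3, 16 to 18 months old) were W/W-v males, whose own spermatogenesis fails, that had received cultured neonatal DBA/2J stem cells, so their sperm derived from cells kept in culture, from several cell lines. Control F0 (n = 3, 16 to 18 months) were DBA/2J males without a transplant. The other 4 groups held 5 mice each, aged 3 months. Control F1 were bred from control males, SSCT F1 were sired by transplanted males with wild-type females, SSCT F2/M had an SSCT F1 mother and a control father, and SSCT F2/P had an SSCT F1 father and a control mother. These 20 mice are called the offspring. Age, generation and collection could not be told apart in a comparison of control F0 with the offspring.

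NMDA, AMPA and kainate receptors are ion channels opened by glutamate and assembled from several subunits, whereas metabotropic glutamate receptors signal through G proteins. GABA-A receptors are chloride channels and GABA-B receptors signal through G proteins as a dimer. These genes are known for their work at synapses. In sperm, as in most mammalian cells, CpG-dense gene starts are typically unmethylated and most CpGs elsewhere are methylated.

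The libraries were unequal in one respect that bears on every SSCT F0 value. The 23 libraries outside SSCT F0 held 1465282 to 1789985 positions with at least 10 reads, with a median of 16 to 31 reads per position. The 3 SSCT F0 libraries held 1527610, 965360 and 175631 positions with at least 10 reads, at a median of 20, 36 and 145 reads per position. The third therefore read few positions very deeply, and SSCT F0 is given only beside control F0 at the positions read in all 6 libraries. A second point concerns names. The sample titles, the treatment label and the published heatmap name the 4 sets of 5 offspring libraries differently. The titles are used here, and the labels alone do not settle which naming is right, so the values of each offspring group hold for its title only. Under the heatmap names the sets titled control F1 and SSCT F2/M are SSCT F2/M and control F1, and those titled SSCT F1 and SSCT F2/P are SSCT F2/P and SSCT F1. A further naming exchanges the SSCT F2 lines of the heatmap. Control F0, SSCT F0 and the pool of 20 offspring are free of this conflict. Imprinted genes that are methylated in oocytes, not in sperm, were low: Zrsr1 lay between 1.40% and 7.78% over 39 positions in the 23 libraries and at 4.95%, 6.0% and 14.5% in the SSCT F0 libraries. Nnat lay between 0% and 7.39% over 8 positions in the 23 libraries, and Mcts2, read at 1 position, between 0% and 14.1%.

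The sequence around the gene starts shows what RRBS read in these genes. RefSeq starts were listed for 24 of the 32 genes, with 30 promoters of 300 bases (250 before the start, 50 after). Among the members' promoters 23 of 30, or 76.7%, held at least 10 CpGs, against 43.5% of 32851 listed promoters, and the median was 13 CpGs against 7. Here 5 are printed 5′ to 3′, chosen because they run from the densest to the sparsest CpG content among promoters read here. CG in capitals marks a CpG read at least 10 times in all 23 libraries, on one strand or both.

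Grik3: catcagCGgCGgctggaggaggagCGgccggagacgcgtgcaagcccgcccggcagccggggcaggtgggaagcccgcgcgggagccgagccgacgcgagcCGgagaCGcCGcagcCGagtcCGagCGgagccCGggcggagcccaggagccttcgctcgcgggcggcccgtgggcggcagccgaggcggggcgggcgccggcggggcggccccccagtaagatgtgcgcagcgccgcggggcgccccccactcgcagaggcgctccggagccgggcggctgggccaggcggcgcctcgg

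Grm8: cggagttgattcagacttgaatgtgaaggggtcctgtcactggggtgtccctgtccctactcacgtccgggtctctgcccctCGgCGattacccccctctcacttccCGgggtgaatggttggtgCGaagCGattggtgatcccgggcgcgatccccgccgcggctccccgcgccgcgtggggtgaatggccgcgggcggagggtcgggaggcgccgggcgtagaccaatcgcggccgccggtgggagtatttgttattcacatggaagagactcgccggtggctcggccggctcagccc

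Gria2: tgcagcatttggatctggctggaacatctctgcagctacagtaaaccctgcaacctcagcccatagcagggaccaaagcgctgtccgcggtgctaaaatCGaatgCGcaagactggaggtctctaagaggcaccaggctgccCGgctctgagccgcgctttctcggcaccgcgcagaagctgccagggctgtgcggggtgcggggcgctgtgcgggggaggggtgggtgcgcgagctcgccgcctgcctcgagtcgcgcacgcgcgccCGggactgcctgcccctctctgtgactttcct

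Grm2: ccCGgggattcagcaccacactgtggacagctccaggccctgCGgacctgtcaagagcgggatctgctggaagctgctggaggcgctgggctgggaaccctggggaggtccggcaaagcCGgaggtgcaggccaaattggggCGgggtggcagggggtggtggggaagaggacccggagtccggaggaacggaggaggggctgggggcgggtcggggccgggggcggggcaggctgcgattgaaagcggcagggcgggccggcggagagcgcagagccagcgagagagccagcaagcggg

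Grin3b: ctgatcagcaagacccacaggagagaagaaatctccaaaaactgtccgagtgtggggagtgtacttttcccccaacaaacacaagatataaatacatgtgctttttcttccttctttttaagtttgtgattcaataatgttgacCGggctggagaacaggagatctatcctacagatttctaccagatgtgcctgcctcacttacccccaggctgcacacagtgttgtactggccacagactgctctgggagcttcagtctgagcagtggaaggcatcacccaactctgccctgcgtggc

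The Grik3 promoter (chr4:125490446-125490745, plus strand) held 50 CpGs, of which capitals mark those read at 15 positions, and averaged 1.35% methylation over the 20 offspring. The Grm8 promoter (chr6:28135097-28135396, minus strand) held 33 CpGs and averaged 2.78% over 6 positions. The Gria2 promoter (chr3:80802786-80803085, minus strand) held 26 CpGs and averaged 1.54% over 4 positions. Grm2 (chr9:106656060-106656359, minus strand), with 22 CpGs, averaged 1.68% over 4 positions. The sparse Grin3b promoter (chr10:79970474-79970773, plus strand) held 3 CpGs and was read at 1 position, which averaged 6.34%. All 5 promoters, dense and sparse, were close to unmethylated where they were read.

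Over the whole list, positions fell into a large unmethylated and a smaller methylated class. Of the 1181 positions, 721 (61.0%) averaged under 20% in the offspring, 379 (32.1%) averaged over 80%, and 81 (6.86%) lay between. Across 358713 positions of all autosomal genes the shares were 70.7%, 24.7% and 4.6%. The receptor genes thus held fewer unmethylated and more methylated positions than autosomal genes as a whole, by a description that was not tested and takes no account of distance from the gene start.

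Distance from the gene start separated the classes. Within 1000 bp of a listed start of their own gene lay 290 positions in 20 genes, of which 288 (99.3%) were unmethylated and 0 methylated. Their mean was 2.02% in the offspring and 2.03% in control F0. Farther away, 656 positions in 21 genes averaged 47.8% and 47.9%, with 46.6% unmethylated and 42.5% methylated. Beyond 20000 bp the 402 positions of 16 genes averaged 66.1%, and 61.9% of them were methylated. All autosomal genes followed the same course, with 97.2% of 163004 positions near a start unmethylated and a mean of 47.7% over 195709 positions farther away, of which 48.7% were unmethylated. These splits were not alike. For the receptor genes distance ran from a listed start of the gene itself, and for all autosomal genes from any listed start. In Grin1 31 of 34 and in Grin2d 31 of 58 positions lay near a neighbour's start and counted as farther away. Levels at like distance were therefore not compared. The 290 near and 656 farther positions also leave out receptor genes without a listed start, so their share was not set against that of all genes. Single genes showed the contrast within their own length. Grik3, a kainate receptor subunit, averaged 1.79% near its start and 84.5% farther away, Grm7, a presynaptic metabotropic receptor, 1.73% and 87.0%, and Gabbr2, the GABA-B subunit that couples to the G protein, 0.98% and 74.9%. The 2 positions near a start that were not unmethylated lay in Grik5, 744 bp into the gene (34.5% ± 20.8), and 255 bp before the start of Grin3b (29.0% ± 24.5). In Gabra5, a GABA-A alpha subunit, the contrast was small, at 1.55% and 4.52%, and in Gabbr1, the GABA-B subunit that binds GABA, it was 0.98% and 6.18%.

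**Figure D1:**
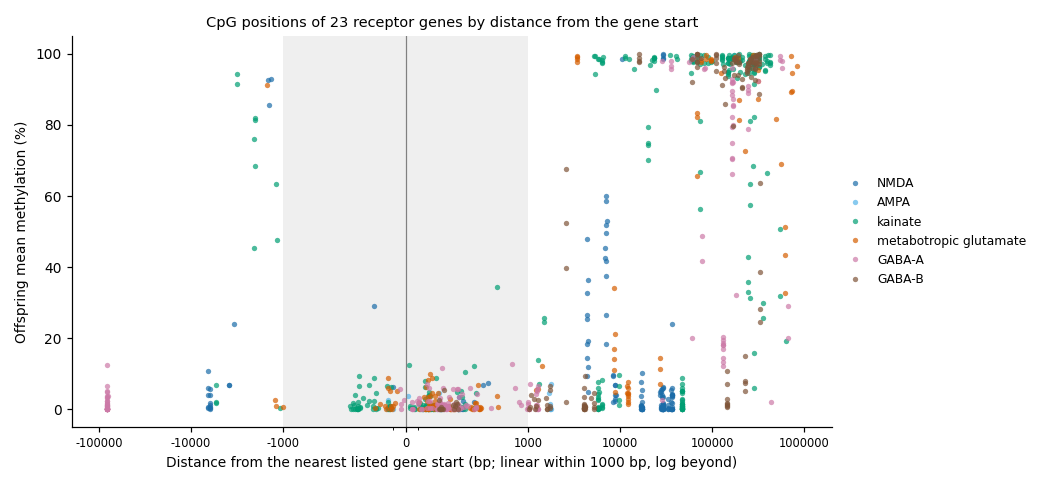
Methylation in percent (y axis, mean of the 20 offspring) of each CpG position in 23 receptor genes, against its distance from the nearest listed start of its own gene in bp (x axis). Points within 1000 bp of a start lie near 0, with a mean of 2.02%, and those beyond 20000 bp average 66.1%.

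The families differed in level, and members differed more within each family. The mean of member means over the 20 offspring was 50.7% ± 0.59 (SD) for kainate receptors, 37.0% ± 0.75 for GABA-B, 36.6% ± 0.69 for metabotropic glutamate receptors, 28.4% ± 1.15 for AMPA, 21.5% ± 1.34 for GABA-A and 20.6% ± 0.87 for NMDA receptors. In the 3 control F0 mice these were 50.9%, 37.5%, 36.7%, 26.9%, 22.2% and 20.3%. GABA-B and metabotropic receptors lay within their spread of each other, as did GABA-A and NMDA receptors. Between the 4 offspring groups a family mean moved by little: kainate receptors ranged from 50.5% in SSCT F2/M to 50.9% in SSCT F2/P, and AMPA receptors, the widest, from 27.1% ± 0.83 in SSCT F2/P to 29.5% ± 1.2 in SSCT F2/M (SD, n = 5).

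Among the NMDA receptor genes, Grin2a and Grin2b, the principal glutamate-binding subunits of the forebrain, were the highest, at 42.7% over 54 positions and 40.6% over 53 positions. Grin3b, a glycine-binding subunit, followed at 26.2% ± 5.09 over 20 positions. Grin2d, a subunit expressed early in brain development, stood at 13.8% ± 1.53 over 58 positions, and Grin1, the obligatory subunit, at 9.71% over 34 positions. Grin2c and Grin3a were lowest, at 6.32% and 4.52%. Several of these values include a neighbour. In Grin2d, 31 of 58 positions lay in its flank within Grwd1 or Kdelr1, in Grin1 26 of 34 lay outside its own span, and in Grin3b 11 of 20 lay in Tmem259. Inside their own spans the offspring averaged 26% ± 2.86 in Grin2d, 2.68% in Grin1 and 4.45% in Grin3b, so the order of these 3 genes depended on the flank.

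Among AMPA receptor genes, Gria1 averaged 68.3% ± 2.76 over 11 positions, Gria4 15.1% over 7 and Gria2, whose edited subunit blocks calcium entry, 1.82% ± 1.80 over 11. Among kainate receptor genes, Grik1 was the highest of the 30 genes with a level, at 88.0% ± 2.58 over 12 positions, followed by Grik4 at 57.2% ± 0.56 over 154, Grik5 at 49.9% over 29, Grik3 at 40.7% and Grik2 at 17.7% over 47. Of the metabotropic genes, Grm3 stood at 58.6% ± 2.84, Grm4 at 57.4% ± 0.96 and Grm5 at 57.1% ± 1.74, and these 3 did not differ beyond their spread. Grm8 followed at 39.8%, Grm6, the receptor of retinal ON bipolar cells, at 23.6%, Grm7 at 17.9% and Grm2, a presynaptic autoreceptor read only near its start, at 2.00% ± 1.10.

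Among GABA-A genes, Gabrg3 (gamma subunit) averaged 42.8% over 41 positions, Gabrb1 (beta) 37.8% over 36, Gabra4 27.4% over 11, Gabrb2 16.9% ± 7.59 over 9, Gabra5 3.13% over 77 and Gabra2 1.13% ± 1.14 over 9. In Gabra5, 33 positions lay outside its own span, and Gabra4 and Gabrb1 shared 8 positions between them. No level could be given for Gabra6 or Gabrd. Gabra6 had 2 of its 4 listed positions read 10 times in any library. Gabrd, a delta subunit, had 64 of 81, though none in all 23 libraries. Where the 10 libraries of SSCT F1 and control F1 covered Gabrd, at 8 positions, they averaged 78.3% ± 5.52 and 79.5% ± 4.53. Of the GABA-B genes, Gabbr2 averaged 68.6% ± 0.76 over 105 positions and Gabbr1 5.40% over 40. Among GABA receptor genes read in all 23 libraries Gabbr2 was thus the highest and Gabra2 the lowest.

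**Figure D2:**
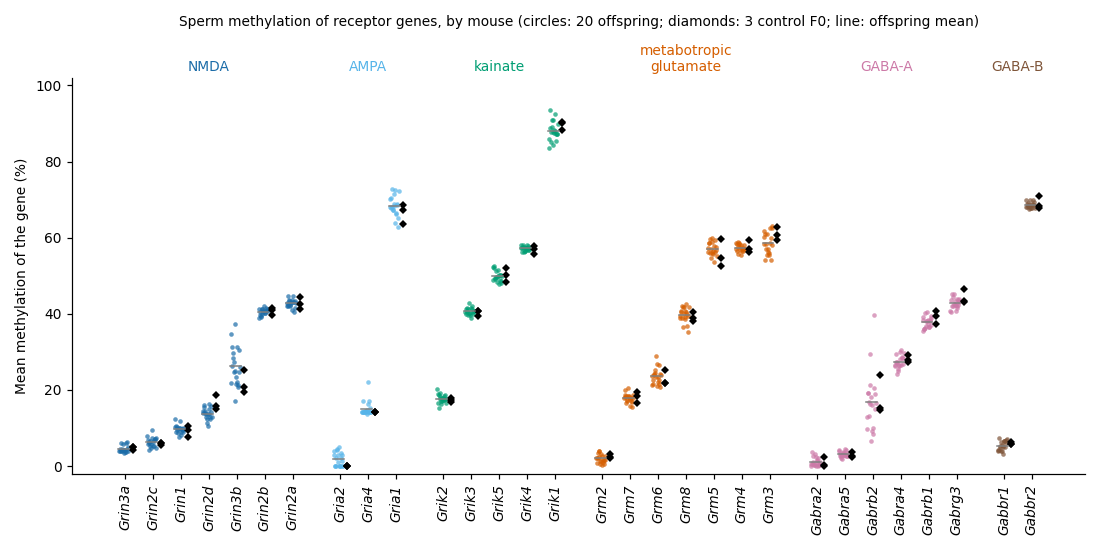
Mean methylation in percent (y axis) of each receptor gene (x axis, coloured by family) in the 20 offspring (circles, with a line at their mean) and the 3 control F0 mice (diamonds), over positions with at least 10 reads in all 23 libraries. Grik1 sits highest at 88.0% and Gabra2 lowest at 1.13%, and Gabrb2 and Grin3b are the most scattered among mice.

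Positions varied little among mice. The SD over the 20 offspring had a median of 4.93 points at member positions and 4.2 points over all autosomal genes, and it exceeded 20 points at 39 of 1181 positions (3.30%) against 2.11%. The 81 partly methylated positions had a median SD of 19 points. Grin3b held 7 of the 39 variable positions, Grik4 5 and Gabrg3 4. In the Grin3b flank, within Tmem259, a tile of 1000 bp with 11 positions (chr10:79977001-79978000) averaged 44.2% ± 7.89 in the offspring, from 33.3% to 61.4%, and 37.8% in control F0. A tile of Gabrb2, a beta subunit, averaged 16.4% ± 6.49 and ranged from 7.42% to 33.8%.

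Groups were compared at 3 scales. Differentially methylated cytosines (DMCs) and regions of 1000 bp (DMRs) were called, after the study's methods, by a chi-square test of methylated and unmethylated reads with a Benjamini-Hochberg q under 0.01 and a difference over 25 points. That test takes reads as its unit and ignores how far mice of a group differ, so the values of each mouse stand beside each call, with an exact permutation test over mice. No exact permutation p was adjusted. At sites named because their groups do not overlap, it is the smallest possible by that choice and adds nothing to the lack of overlap. An F test scaled to the spread between mice called 0 member positions and 0 member tiles in all 5 comparisons. How many of all positions and tiles it called is not given here. Gene means were compared with limma over all autosomal genes, called at an adjusted p under 0.05. Differences are the first-named group minus the second. The difference of a DMC or DMR pools the reads of each group, so the libraries that read it deepest weigh most, and it can depart from the difference between the means over mice, which is given where the departure is large.

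Control F0 and the offspring differed in age, at 16 to 18 against 3 months. Grin2d, an NMDA receptor subunit gene on chromosome 7, was more methylated in the control F0 mice at one site inside the gene, and Grm8 and Grin3b held 1 lower position each. With the SSCT F0 mice, of the same age as control F0, added to the older mice, the pooled reads of the 3 Grin2d DMCs differed by -5.80, -6.22 and -5.72 points. The third SSCT F0 library, at 0% with 2947 reads over 6 positions of this site, weighed most in them. At 45862330, 45862307 and 45862349 the means over mice were 45.2%, 22.2% and 40.4% in SSCT F0. They were 64.8%, 55.6% and 54.6% in control F0 and 32.7%, 26.6% and 25.3% in the offspring. At single positions 5 of 1181 (0.423%) were DMCs, against 0.289% of all positions, and 0 of 281 member tiles were DMRs against 0.306%. No member tile passed at an unadjusted p under 0.05 with over 25 points either. Of gene means, 0 of 30 passed by limma, against 0.0319% of all genes, and 1 did at an unadjusted p under 0.05, where 1008 of 21955 genes did. Most positions moved little, with 93.6% of the 1181 within 10 points, against 95.5% of positions over all autosomal genes.

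The Grin2d site lay in a tile of 11 read positions (chr7:45862001-45863000), 4327 to 4425 bp from the listed start and inside the gene. Over this tile the control F0 mice stood at 39.0%, 42.0% and 39.5%, and the 20 offspring ran from 11.1% to 35.7% with a median of 23.0%. All 3 control F0 mice lay above all 20 offspring. The means were 40.2% ± 1.62 (SD, n = 3) and 22.7% ± 6.49 (n = 20), the read-weighted difference was 18.0 points, under the 25 points a call needs, and the exact permutation test over mice gave p = 0.00113 (two-sided), the smallest it can give here. This p was taken for 1 tile of 281 and was not adjusted. The tile was also called without overlap against SSCT F0, described below, with the same 3 control F0 mice, so both results are not independent. Of tiles called or not, 0.0712% of all tiles kept control F0 and the offspring apart, and among the 281 member tiles it was this one. The 4 offspring groups overlapped one another, at 21.8% ± 7.01 in control F1, 24.0% ± 7.40 in SSCT F1, 22.1% ± 8.86 in SSCT F2/P and 22.8% ± 3.74 in SSCT F2/M.

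In this tile 3 single positions were DMCs, all on the minus strand and close enough for single reads to span them. At position 45862330 control F0 stood at 58.1%, 71.4% and 64.9% and the offspring averaged 32.7% ± 18.9, none above 56.2%. It was the DMC without overlap between the groups (35.2 points, exact permutation p = 0.00113), of a kind that made up 0.00949% of all positions. At 45862307 control F0 stood at 30.6%, 58.3% and 77.9% against 26.6% ± 20.8, and at 45862349 at 69.3%, 45.2% and 49.4% against 25.3% ± 14.4, with overlap at both. The exact permutation p was 0.0486 and 0.00565, and these positions were not DMCs without control F0 replicate 3 and replicate 1, respectively. Not every position of the tile moved this way, since at 45862298, on the plus strand, control F0 averaged 44.8% and the offspring 47.8%, and at 45862284 they averaged 24.3% and 36.3%. Over the gene as a whole Grin2d averaged 16.5% ± 1.90 in control F0 and 13.8% ± 1.53 in the offspring, a difference of 2.68 points ± 0.95 (SE) with a limma adjusted p of 0.876. Inside its own span the difference was 5.83 points ± 1.74 with a limma adjusted p of 0.529.

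**Figure D3:**
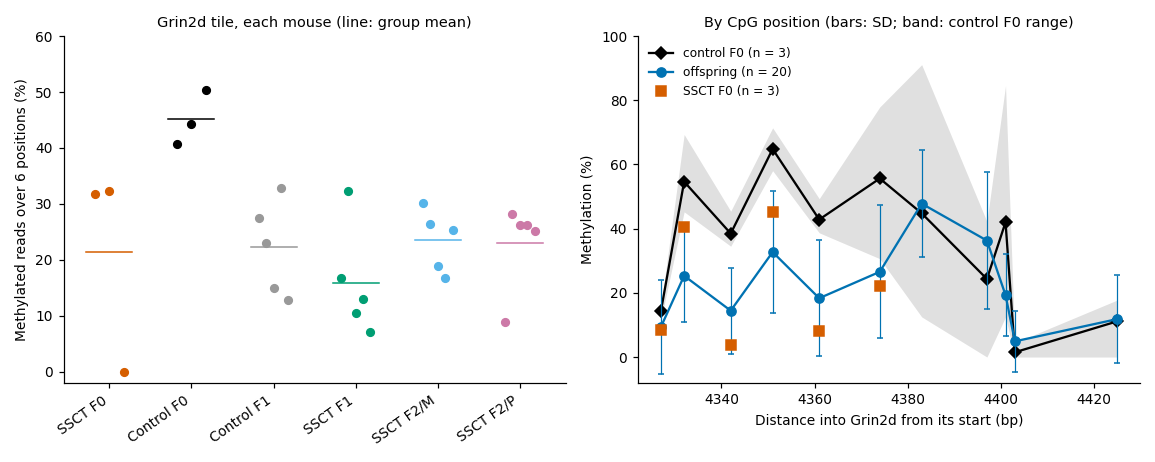
Left, methylation in percent of each mouse at the 6 Grin2d positions read in all 26 libraries, by group (points, with a line at the group mean). Right, the same measure at the 11 positions of the tile by distance from the Grin2d start in bp, as means of control F0 (band, its range), of the offspring (bars, SD) and, where read in all 3, of SSCT F0. The control F0 mice lie between 40.7% and 50.4% on the left, above the highest of the 20 offspring at 32.8%.

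Grm8, a presynaptic metabotropic receptor, was lower in the older mice at position 27507475 of chromosome 6. Control F0 stood at 17.6%, 0% and 32.2% and the offspring at 23.1% to 80.3%, with a mean of 51.2% ± 13.8. The groups overlapped by 1 control F0 mouse (-30.5 points, exact permutation p = 0.00339). The Grin3b DMC, at position 79977755 within Tmem259, stood at 50.0%, 2.86% and 51.7% in control F0 and at 58.6% ± 19 in the offspring (-28.5 points, exact permutation p = 0.0960) and was not a DMC without control F0 replicate 2, the mouse at 2.86%. Among gene means, the largest differences over at least 5 positions were in Grin3b, at -4.42 points ± 2.93 (SE), Grin2d, and Grm3, at 2.37 points. None of these passed. In Grin3b 11 of 20 positions lay in Tmem259, and inside its own span the means were 4.45% in the offspring and 2.96% in control F0.

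SSCT F0 was then set beside control F0 at the 236 member positions read in all 6 libraries. Grin2d was lower in the transplanted males at the site described above, where 2 DMCs stood without the third SSCT F0 library. Most other calls, the Grin2d DMR among them, rested on that library. There were 17 DMCs (7.20%) against 5.83% of all positions and 7 DMRs of 51 tiles (13.7%) against 10%. Of gene means 0 of 19 passed by limma, against 0%, and 0 passed at an unadjusted p under 0.05, where 661 of 10680 genes did. Groups that did not overlap were found at 2 of the DMCs, where 1.26% of all positions were of this kind, and at 1 of the DMRs, where 2.84% of all tiles were.

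In the Grin2d tile, over 6 positions, SSCT F0 stood at 31.7%, 32.3% and 0% and control F0 at 40.7%, 44.3% and 50.4%. All SSCT F0 mice were below all control F0 mice. These are the same 3 control F0 mice that lay above the offspring, so this result is not independent of that one. The means were 21.3% ± 18.5 and 45.2% ± 4.92, which is -23.8 points between the means over mice and -41.1 points with reads pooled, and the exact permutation p was 0.1, the smallest that 3 against 3 can give. The means over mice thus differed by less than the 25 points of a call. Without the third SSCT F0 library the pooled difference was -13.5 points and not a call. At position 45862320 SSCT F0 stood at 24.4%, 0% and 0% and control F0 at 38.7%, 40.5% and 49.4%. At 45862339 they stood at 11.1%, 0% and 0% and at 35.5%, 34.5% and 45.5%. Both positions were DMCs without overlap and passed when any 1 of the 6 libraries was left out. The DMCs at 45862307, 45862330 and 45862349 were not called without the third SSCT F0 library. The second SSCT F0 library was uneven along these few bases, with 0% at 45862307 and 96.9% at 45862330 and 45862349. At the same 6 positions the 20 offspring averaged 21.1% ± 8.05, from 7.02% to 32.8%, a range in which the first and second SSCT F0 mice fell and the control F0 mice did not.

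The other SSCT F0 calls followed the third library. Of the 13 DMCs that were lower in SSCT F0, the third library stood at no more than 0.381% in each and at 0% in 11, and at the 4 higher ones it alone was above 0%. In Gabbr2 (chr4:46698001-46699000, 1 position) SSCT F0 stood at 97.8%, 100% and 0% against 100%, 98.9% and 95.3% in control F0 (-62.9 points with reads pooled, -32.1 points between the means over mice, exact permutation p = 0.7), and without the third library the difference was 0.840 points. In Grm5, which couples to calcium release, the 1 position of a tile (chr7:87831001-87832000) stood at 100%, 100% and 0% against 61.9%, 75% and 48.8% (exact permutation p = 1). The means over mice put SSCT F0 higher by 4.75 points and the pooled reads put it lower, at -48.9 points. Without the third library SSCT F0 was higher by 39.6 points. In Gria1 (chr11:57143001-57144000, 2 positions) SSCT F0 stood at 85.5%, 100% and 50.3% against 100% in all 3 control F0 mice (-43.7 points with reads pooled, -21.4 points between the means over mice, exact permutation p = 0.4), and without the third library the difference was -5.46 points. The remaining DMRs were in Gabrb1 (-40.2 points pooled, -27.1 over mice), Grik4 (-31.6 and -12.9) and Grin2a (-30.1 and -26.5). Near the Grik3 start, 438 bp into the gene, a position read 0%, 0% and 100% in SSCT F0 and 0% in all control F0 mice. So did Grin2d 45832908 and 45832919, outside the tile above, each higher in SSCT F0 by 89.7 points with reads pooled. Counted without the third library over the positions that the 6 libraries shared, the members held 6 DMCs of 236 and 2 DMRs of 51, where all positions held 3638 of 82246 and all tiles 1200 of 19604.

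**Figure D4:**
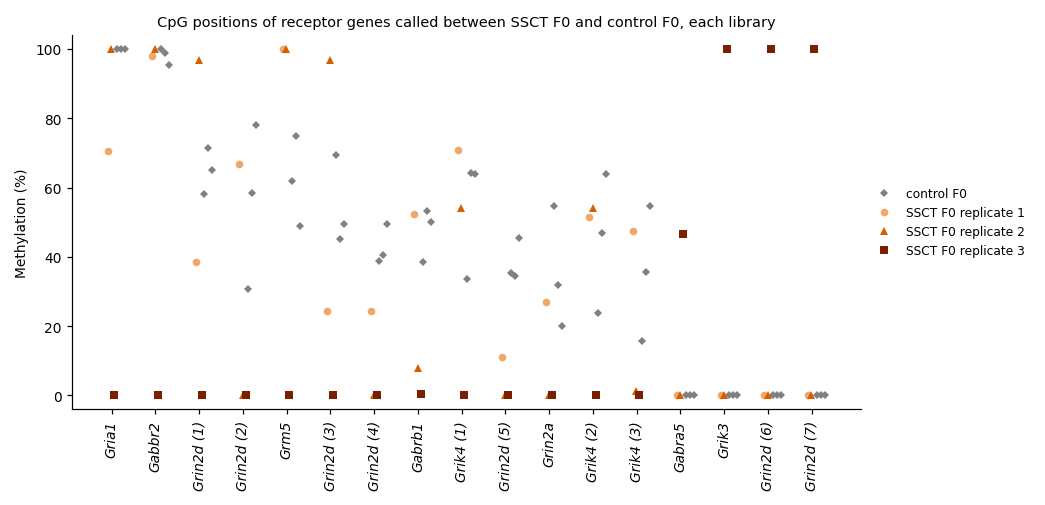
Methylation in percent (y axis) of every SSCT F0 and control F0 mouse at the 17 DMCs of the receptor genes (x axis, numbered where a gene holds several), with the SSCT F0 libraries marked by replicate. The third SSCT F0 library is at or near 0% in the 13 lower DMCs and alone above 0% in the 4 higher ones.

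The largest differences in gene mean over at least 5 positions were in Gria1, with SSCT F0 at 34.1%, 46.0% and 20.0% and control F0 at 44.2%, 41.6% and 55.2% (-13.7 points ± 8.46, SE), followed by Grik2 (-4.82 points) and Grin2a (-4.31 points). Their limma adjusted p was 0.689. Gabbr2, read at 3 positions, differed by -8.54 points ± 9.54 (limma adjusted p = 0.744). Of the 236 positions read in all 6 libraries, 88.6% moved by less than 10 points, against 87.7% of all positions.

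The 3 comparisons among offspring all use the same control F1 libraries, so their values are given side by side and are not independent. In SSCT F1 against control F1, 12 of 1640 positions (0.732%) were DMCs, against 0.462% of all, and 4 of 388 tiles (1.03%) were DMRs, against 0.415%. At 3 DMCs the groups did not overlap, a kind that made up 0.0414% of all positions. In SSCT F2/M, 4 of 1816 positions (0.220%) were DMCs, against 0.42%, and 0 of 396 tiles were DMRs, against 0.363%. In SSCT F2/P, 2 of 1934 positions (0.103%) were DMCs, against 0.43%, and 0 of 412 tiles were DMRs, against 0.392%. In both F2 groups 0 member tiles passed at an unadjusted p under 0.05 with over 25 points. These counts moved with single mice and with the names: with 1 mouse left out in turn SSCT F2/P held 3 to 11 DMCs, and under the heatmap names it held 9. The counts over all positions in those settings are not given here, so such shifts are not read as particular to the receptor genes.

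Of gene means, 0 of 31 passed by limma in each SSCT offspring group, against 0% of all genes in each. At an unadjusted p under 0.05 there were 2, 0 and 3 member genes of 31, where 1131 of 23970, 1126 of 24404 and 1163 of 24691 genes passed in all. In SSCT F1 these were Grm3 and Grin3b. Grm3, a metabotropic receptor of neurons and glia, stood at 61.5%, 66.1%, 62.9%, 63.5% and 61.8% in SSCT F1 and at 64.5%, 54.2%, 56.9%, 55.5% and 54.1% in control F1. One control F1 mouse lay among the SSCT F1 mice, and the difference was 6.09 points ± 1.98 (SE, limma adjusted p = 0.962). Grin3b was 3.95 points ± 1.30 lower in mean, at 16.9% ± 1.75 and 20.8% ± 2.56, with the same limma adjusted p. Gabrb2 differed by 2.73 points.

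In SSCT F2/P the 3 genes were Gabra4, Grm2 and Grm3. Gabra4, a GABA-A alpha subunit, stood at 25%, 23.6%, 23.9%, 22.4% and 21.2% in SSCT F2/P and at 20.7%, 21.4%, 21.2%, 19% and 19.7% in control F1. The difference was 2.82 points ± 0.79 (SE, limma adjusted p = 0.975), with overlap by 1 mouse. Grm3 differed by 5.28 points ± 2.11, Grm2 by -1.78 points and Grin3b, with its flank in Tmem259, by -2.41 points. In SSCT F2/M the largest were Gabrb2, at 5.20 points ± 4.38, Gria4, at 2.27 points, and Grin2d, at -2.09 points. Other differences turned as well as shrank under the other names. Gabra4 in SSCT F2/P differed by -0.45 points under the heatmap names and -1.22 with the F2 lines exchanged. Gabrb2 in SSCT F1 differed by -7.09 points under both. In SSCT F2/M the heatmap names swap the compared sets, so Gabrb2, Gria4 and Grin2d turn their sign, and with the lines exchanged they differed by -2.47, 0.14 and 2.01 points. Under the heatmap names Grm3 differed by 1.16 points in SSCT F1, and by 1.43 points in SSCT F2/P or -0.32 points with the F2 lines exchanged.

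**Figure D5:**
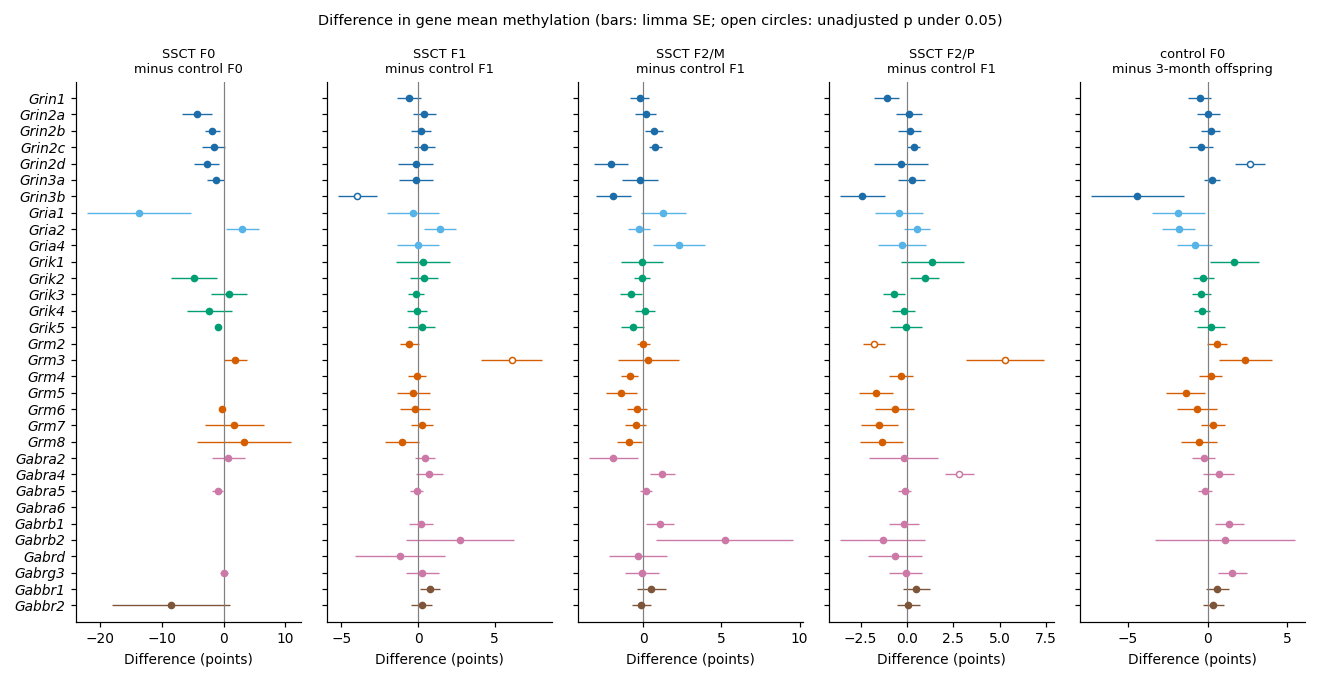
Difference in mean methylation, in points, of each receptor gene in the 5 comparisons (x axis, a scale of its own for each comparison), with bars of 1 SE from limma and open circles for an unadjusted p under 0.05. The widest values are in SSCT F0, with Gria1 at -13.7 points and Gabbr2, read at 3 positions, at -8.54 points, and Grm3 stands at 6.09 points in SSCT F1, and 0 genes passed by limma in any comparison.

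At single sites, Grik2, a kainate receptor subunit gene, was higher in SSCT F1. At position 49249930 of chromosome 10 SSCT F1 stood at 73.7%, 41.2%, 38.5%, 40.4% and 47.2% and control F1 at 3.64%, 8.82%, 34.5%, 13.9% and 13.6%. The groups did not overlap (33.1 points, exact permutation p = 0.00794, the smallest that 5 against 5 can give). This p follows from the lack of overlap for which the position was named, and it was not adjusted over the 1640 positions. In SSCT F2/P the same position was 27.7 points above the same control F1 mice (exact permutation p = 0.0317). The Grik2 tile around it (chr10:49249001-49250000, 2 positions) was a DMR in SSCT F1, at 30.9 points (exact permutation p = 0.0397).

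Gabrg3 and Grin3b held the other separate positions, both lower in SSCT F1. At 56716007 of chromosome 7, just beyond the end of Gabrg3 that lies away from its start, SSCT F1 stood at 12.3%, 8.05%, 0%, 0% and 12.1% and control F1 at 21.1%, 63.8%, 26.3%, 37.0% and 51.6% (-31.0 points, exact permutation p = 0.00794). At 79977795 of chromosome 10, in the Grin3b flank within Tmem259, SSCT F1 stood at 38.3%, 27.8%, 21.2%, 35.7% and 0% and control F1 at 87.5%, 60.5%, 78.1%, 76.1% and 53.3% (-42.0 points, exact permutation p = 0.00794). These positions do not overlap between the groups titled SSCT F1 and control F1, and were named for it, so their p follows from that choice. Under the heatmap names, the Gabrg3 position differed by 3.56 points, the Grin3b position by -3.75 points and the Grik2 position by 17.2 points, and none of the 3 was a DMC. The other 3 DMRs in SSCT F1 were Grm3 (27.6 points pooled, 40.8 over mice, 1 position, exact permutation p = 0.0556) and Grm8 at chr6:27626001-27627000 (-25.2 points) and chr6:28137001-28138000 (-26.8 points). With 1 mouse left out in turn they were called in 7, 5 and 6 of 10 fits, and the Grik2 DMR in 10 of 10. Of the 12 DMCs, 4 passed whichever mouse was left out, and 2 were DMCs under the heatmap names, namely Gabrg3 57310712, with its sign turned, and Grin3b 79977754.

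The DMCs of the F2 groups, too few to be chosen by rule and named here with their values known, all overlapped between groups. In SSCT F2/M, Grik5, a kainate subunit that assembles only with others, was lower at 25071625 of chromosome 7, the partly methylated position near its start, at 20.5%, 0%, 15.4%, 2.70% and 36.8% against 64.9%, 66.2%, 40%, 26.8% and 52.9% (-32.1 points, exact permutation p = 0.0159). The same position was 25.5 points below control F1 in SSCT F2/P (exact permutation p = 0.151). Gabrg3 57310712 was higher in SSCT F2/M by 32.4 points (exact permutation p = 0.0317) and in SSCT F1 by 27.6 points, against the same control F1 mice. Gabbr1 37048530 was lower by 28.1 points (exact permutation p = 0.0476) and Grin2d 45869897 by 29.5 points (-42.4 between the means over mice, exact permutation p = 0.0556). Because the heatmap names exchange the sets titled control F1 and SSCT F2/M, each of these 4 differences turns its sign under them. With 1 mouse left out in turn, Grik5 and Gabrg3 in SSCT F2/M were called in 10 of 10 fits, Gabbr1 in 8, Grin2d in 7, and in SSCT F2/P Grik2 in 8 and Grik5 in 6.

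Proteins that accompany or anchor these receptors were counted beside them, from a list of 16 genes such as Cacng2, which traffics AMPA receptors, Homer1, which links metabotropic receptors to the postsynaptic scaffold, and Gphn, which anchors GABA-A receptors. They held 6 DMCs of 92 positions in SSCT F0, 2 of 830 (SSCT F1), 6 of 942 (SSCT F2/M), 2 of 993 (SSCT F2/P) and 2 of 625 in control F0 against the offspring, where 5.83%, 0.462%, 0.42%, 0.43% and 0.289% of all positions were DMCs. DMRs numbered 1 of 26, 0 of 175, 1 of 182, 0 of 190 and 0 of 135 in the same order, against 10%, 0.415%, 0.363%, 0.392% and 0.306% of all tiles. Of their gene means none passed by limma, and the smallest adjusted p over the 5 comparisons was 0.665, for Homer2 in control F0 against the offspring (-2.21 points ± 0.68, SE), whose unadjusted p was 0.00339.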

How the data were processed

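Sperm DNA was sequenced by RRBS in single reads. The authors trimmed reads, aligned them to GRCm38 with Bismark and tested them with methylKit, and the submitters' processing notes name Trim Galore 0.4.1, FastQC, Bismark 0.20.0, methylKit 1.7.0 and mm10. Each deposited table gives, for each CpG position and strand, the methylated fraction and the read count (coverage) with no normalization. Counts of methylated reads were taken as fraction times coverage, and all but 1 to 4 products per library were whole within 0.01.

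The members and the list of accompanying proteins were chosen with earlier results of these data known. Some other genes of the pathway are not reported here. Groups come from the sample titles. A position entered a comparison when each of its libraries read it at least 10 times and not above that library's 99.9th percentile, and tiles spanned 1000 bp. Chi-square tests, a scaled F test and exact permutation tests (two-sided) were computed over all positions or tiles with Python 3.11.15, numpy 2.4.6, pandas 2.3.3 and scipy 1.17.1. Gene means over at least 3 positions were compared with limma 3.58.1 in R 4.3.3, with Benjamini-Hochberg adjustment over all autosomal genes. Both procedures were tested on simulated data. Positions of a gene share reads and mice and are not replicates, and PCR reads without molecular identifiers are not independent molecules.

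Named genes were those with a DMR, the 3 with the largest difference in gene mean per comparison over at least 5 positions, and the 3 highest and 3 lowest in level. Named sites were the 3 largest DMRs per comparison and up to 3 DMCs or DMRs without overlap, and where a comparison held 5 or fewer calls all were named after their values were seen. No 2 libraries of a group agreed within sampling noise (46 pairs, mean chi-square at least 5.38). Replicate numbers were not taken as pairs. Deviations from the group mean correlated at -0.046 to 0.057 between libraries with the same number and at -0.044 to 0.061 between the others. In SSCT F2/P against control F1 these ranges were -0.003 to 0.057 and -0.043 to 0.021. Alternatives were another coverage minimum, merged strands, shifted tiles, each mouse left out, the other group names, a replicate block, and other gene summaries. Gene annotation and promoter sequences came from RefSeq tables on GRCm38, which give no exons for these genes. No protein or genome sequence was used.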

Additional observations from a re-analysis of the deposited data

Results flagged for a closer look

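In 72 sets of 5 mice (18 genes named by rule in 4 offspring groups), the gene mean of 1 mouse stood apart from the other 4 of its group in 2, and chance flags about 1 set in 20. For Gria4, an AMPA receptor subunit gene read at 7 positions, the second control F1 mouse stood at 17% and the other 4 all at 14.3%. For Grik1, a kainate receptor subunit gene read at 12 positions, the second SSCT F2/P mouse stood at 92.4% and the other 4 between 87.1% and 87.9%.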

How the results depend on the processing

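Gene means of the receptor genes gave 0 calls in all settings tried. The F test took each comparison's member DMCs and DMRs to 0. Unless a count over all positions or tiles is printed beside them, the counts in this section are of the receptor genes alone. They do not show whether calls over all positions moved in the same way, and are not read as a result about these genes. In SSCT F0 against control F0, over all sites covered without SSCT F0 replicate 3, there were 114 DMCs of 1729 member positions and 30 DMRs of 274 tiles (34954 of 599350 and 9532 of 94033 in all), the Gabbr2 DMR differed by 0.840 points and the Grm5 DMR by 36.0 points. At a coverage of 20 reads, SSCT F1 held 3 DMCs and 1 DMR, and SSCT F2/M, SSCT F2/P and the age comparison 1 DMC each. At 5 reads SSCT F2/M held 14 DMCs and 1 DMR and SSCT F2/P 8 and 1. With strands merged, SSCT F2/P held 1 DMC. With control F1 alone as the younger mice the age comparison held 21 DMCs and 4 DMRs, and with SSCT F0 added to the older mice 1 and 1. In the latter, with reads pooled and the third SSCT F0 library weighing most, Grin2d 45862330 differed by -5.80 points, 45862307 by -6.22 and 45862349 by -5.72. The cause of these shifts was not tested.

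Under the heatmap names SSCT F1 held 7 DMCs and 1 DMR, with or without the exchange of the F2 lines, Gabrg3 56716007 differed by 3.56 points and Gabrg3 57310712 by -31.9. With the heatmap names SSCT F2/P held 9 DMCs and 1 DMR. In SSCT F2/M, where the 2 sets swap, Gabbr1 37048530 differed by 28.1 points, Gabrg3 57310712 by -32.4, Grik5 25071625 by 32.1 and Grin2d 45869897 by 29.5, and in SSCT F2/P Grik5 by 24.6. With the F2 lines exchanged SSCT F2/M held 9 DMCs and 1 DMR, with Gabrg3 57310712 at -4.80 points, Grik5 at 24.6 and Grin2d 45869897 at 24.6, and SSCT F2/P held 4 DMCs, with Grik2 49249930 at -10.5 points and Grik5 at 32.1.

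With each mouse left out in turn, DMCs and DMRs ranged from 6 to 18 and 2 to 7 in SSCT F0, both lowest without its replicate 3, from 12 to 18 and 1 to 6 in SSCT F1, from 4 to 8 and 0 to 1 for SSCT F2/M, from 3 to 11 and 0 to 2 in SSCT F2/P, and from 5 to 17 and 0 to 2 in the age comparison, with 17 DMCs without the second control F0 mouse. The Gabbr2 DMR ranged from -78.7 to 0.840 points and the Grm5 DMR from -58.3 to 39.6. Replicate numbers were not taken as pairs, and libraries correlated best with their own number in 1 of 3 to 3 of 5 cases. A replicate block changed no count of member DMCs, DMRs or called genes. It gave 17 DMCs and 7 DMRs in SSCT F0, 12 and 4 in SSCT F1, 4 and 0 (SSCT F2/M), and 2 and 0 (SSCT F2/P). Member genes at an unadjusted limma p under 0.05 in SSCT F2/P went from 3 to 2. Coverage in SSCT F0 replicate 3, which read few positions, limits the members' positions shared by the 6 F0 libraries to 236.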
